A study of Homo sapiens with 6 samples.

Results

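The genes described here are the zinc finger genes with the symbols ZNF600 to ZNF799, taken as every row of the deposited expression table whose gene name is ZNF, a 6 or a 7, and another pair of digits. They were 121 of the 26025 genes in the table. Their values were compared between NCI-H1299 cells, a cell line from human non-small-cell lung cancer, that received norepinephrine (NE) and those that did not (Ctrl). Each group had 3 libraries of bulk RNA. In both groups the cells were kept without serum for 8 to 12 h and then cultured for 48 h in medium with 2% serum, with NE at 10 µM in one group only. The sample titles name the Ctrl vehicle DMSO and the treatment protocol names PBS, so the vehicle is not settled. The source of the 3 libraries of a group (separate cultures or not) is not given, and p-values therefore measure only the spread between these libraries, which may be technical.

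C2H2 zinc finger proteins form the largest family of human transcription factors. Each finger is a short loop held by a zinc ion between a pair of cysteines and a pair of histidines, and fingers in a row read a stretch of DNA. A large share of the family also carries a KRAB domain, whose A box binds the corepressor TRIM28 (KAP1). TRIM28 in turn recruits the histone methyltransferase SETDB1, HP1 proteins and deacetylases, and these silence the bound DNA, very often a transposable element. KRAB zinc finger genes multiplied by tandem duplication, and many sit in clusters on chromosome 19. NE acts through adrenergic receptors, and its β-type receptors raise cAMP, activate protein kinase A and so activate CREB, which binds the cAMP response element (CRE).

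By the GENCODE v44 annotation of hg38, 51 of the 121 genes lay on chromosome 19, 12 on chromosome 16, 11 on chromosome 7 and 11 on chromosome 1. A coding sequence was found for 120 of them, and ZNF781 had none. These 120 carried between 0 and 34 zinc fingers of the C2H2 pattern, with a median of 10. A KRAB A box pattern was present in 79 of the 120. ZNF720, now named KRBOX5, had the KRAB box and no finger. The exons of 50 members overlapped those of another listed gene. Whether reads were counted by strand is not given in the sources used here, so reads from such overlaps cannot be told apart. Among the genes named below this holds for ZNF605, ZNF606, ZNF607, ZNF625, ZNF638, ZNF646, ZNF649, ZNF652, ZNF660, ZNF664, ZNF667, ZNF668, ZNF687, ZNF688, ZNF710, ZNF717, ZNF726, ZNF750, ZNF761, ZNF763, ZNF771, ZNF790 and ZNF793. Reads shared between close copies of the family may likewise have been lost or split.

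The libraries held between 16852751 and 17979206 reads on genes. The third Ctrl library stood apart: 7305 genes were at 0 in it, against 4829 and 4833 in the other Ctrl libraries and 3954 to 4416 in the NE libraries, and the counts over the members and their subgroups are therefore also given without it. Of the marker genes, KRT18, KRT8 and VIM were present at high levels in every library, with normalized read counts of at least 6679, 5232 and 45300. They were lower with NE, with log2 fold changes of -1.62, -1.06 and -0.38 (limma adjusted p = 8.24e-05, 0.000604 and 0.0462), and what part this has in the changes of the members was not tested. The lung lineage markers NKX2-1, NAPSA and SFTPB had normalized read counts of at most 6.78, and the fibroblast and hepatocyte genes COL3A1, LUM and ALB of at most 7.31. The endothelial genes PECAM1 and VWF reached 36.6 and 22.5.

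NE-treated cells had more RNA of many members and less RNA of few. Of the 113 members with a mean normalized read count of at least 10, 43 were significantly upregulated and 12 significantly downregulated by limma at a Benjamini-Hochberg adjusted p under 0.05, while 24.6% and 25.5% of all 15013 genes tested were. At a log2 fold change of at least 1 as well, 18 members (15.9%) were upregulated against 7.47% of all genes, and 1 member, ZNF787, was downregulated against 6.55%. The median log2 fold change of the members was 0.37, and that of all genes 0.01. In bulk RNA a change in the level per cell and a change in the mix of cells cannot be told apart. In 56 of the 113 members all NE values lay above all Ctrl values, as in 29.7% of all genes, and in 15 all NE values lay below, as in 28.9%. An exact permutation test of 3 libraries against 3 cannot go below p = 0.1, so significance here rests on limma's estimate of the spread over all genes.

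Without the third Ctrl library, 51 members were higher and 22 lower at the adjusted p, against 31.8% and 32.6% of all genes, and 21 and 2 also passed the fold threshold, against 10.7% and 10.1%. The 43 higher members and the 12 lower ones all remained on the same side and past the threshold, and 17 of the 18 called members were called again. ZNF761 was the exception, with a log2 fold change of 0.96. The median rose to 0.44. The members as a whole thus stood higher with NE whether or not this library was used, while the number of lower members went from 12 to 22 without it.

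**Figure D1:**
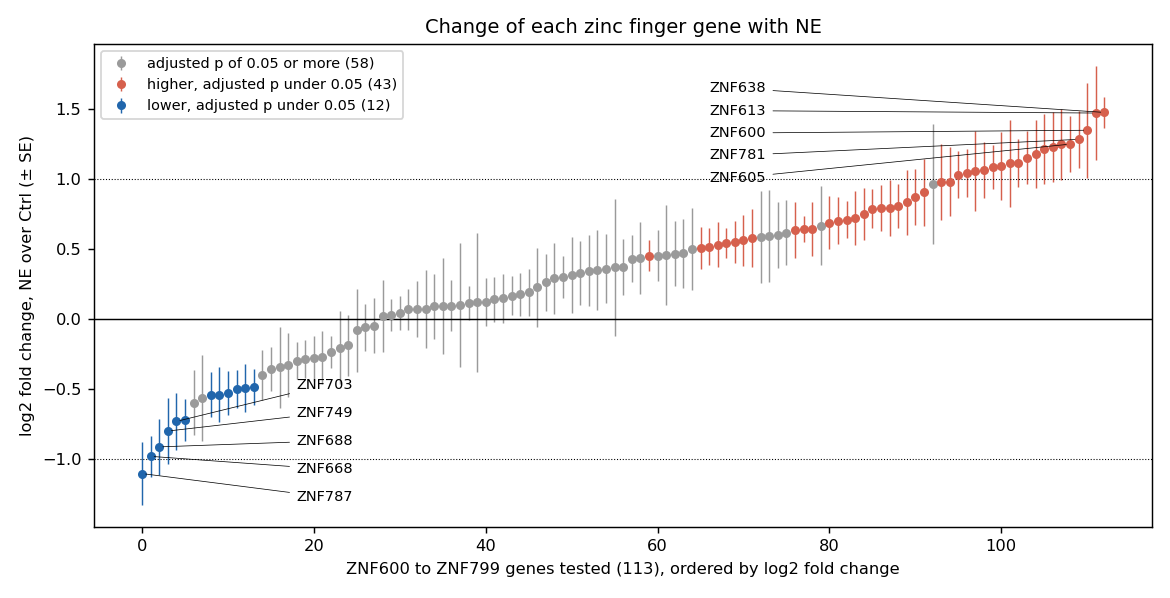
Log2 fold change (NE over Ctrl) of the 113 members tested, ordered by size, with bars of 1 SE of the limma fit from 3 libraries a group; dotted lines mark a log2 fold change of 1 and -1. The 43 higher members (red) outnumber the 12 lower ones (blue), and ZNF787 is the only member below the lower line.

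The largest rise was in ZNF638. Its protein, also known as NP220, binds cytidine-rich DNA and brings the HUSH complex to retroviral DNA that has not integrated. Normalized read counts of ZNF638 were 682, 699 and 777 in the Ctrl libraries and 2160.1, 1926 and 1920 in the NE libraries. The groups were far apart, and the log2 fold change was 1.48 ± 0.11 (SE, n = 3 per group, limma adjusted p = 4.15e-05). After correction for GC content, described below, it was 0.85 ± 0.10 (limma adjusted p = 0.000262).

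ZNF613, a KRAB gene with 12 fingers on chromosome 19, had counts of 30.4, 26.96 and 13.7 in Ctrl and 57.3, 71.7 and 64.0 with NE. These are low counts, but the lowest NE library was still above the highest Ctrl library, and the log2 fold change was 1.47 ± 0.34 (limma adjusted p = 0.0059). ZNF600, another KRAB gene with 18 fingers, had 24.1, 50.8 and 63.7 in Ctrl and 127, 95.9 and 111 with NE, a log2 fold change of 1.35 ± 0.34 (limma adjusted p = 0.00957). Its Ctrl libraries differed among themselves by more than its NE libraries did.

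ZNF606, a KRAB gene near the end of the long arm of chromosome 19, had 54.5, 40.4 and 66.6 in Ctrl and 152, 101 and 132 with NE. ZNF605, whose exons overlap those of CHFR on chromosome 12, had 83.8, 92.3 and 65.7 in Ctrl and 212, 162 and 203 with NE. Both had a log2 fold change of 1.25. In neither gene did the groups overlap. ZNF781 had 51.3, 69.5 and 54.9 in Ctrl and 136, 166 and 129 with NE, and ZNF624, with 20 fingers, had 23.0, 23.9 and 24.5 against 52.4, 61.0 and 58.5. The Ctrl libraries of ZNF624 were nearly equal. The remaining genes among the 10 largest rises were ZNF765, ZNF717 and ZNF720, with log2 fold changes of 1.21, 1.18 and 1.15. Each of these 10 genes stayed past the adjusted p when any 1 of the 6 libraries was left out. With the GC correction ZNF781, ZNF624 and ZNF717 no longer passed (limma adjusted p = 0.0772, 0.122 and 0.0569), and the other 7 did.

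The largest fall was in ZNF787, a gene with 7 fingers and no KRAB box and the only member called lower. It had 872, 886 and 493 in Ctrl and 327, 385 and 302 with NE. The third Ctrl library lay between the other Ctrl libraries and the NE libraries. Its log2 fold change was -1.10 ± 0.22 (limma adjusted p = 0.00328), and -1.38 without that library. Without the first and without the second Ctrl library it was -0.97 and -0.96, and the gene was then past the adjusted p but not the fold threshold.

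ZNF668, which has been linked to the repair of DNA damage, had 214, 218 and 230.3 in Ctrl and 115, 108 and 111 with NE. Both groups were tight, and the log2 fold change was -0.98 ± 0.15 (limma adjusted p = 0.000761). After GC correction ZNF668 was at -0.33 and no longer passed (limma adjusted p = 0.159). Its neighbour ZNF646, which starts from the opposite strand close by and was added to the named genes after its value was seen, did not pass, with a log2 fold change of -0.05 (limma adjusted p = 0.858). ZNF688, a KRAB gene of the same region of chromosome 16, had 320.4, 355 and 238 in Ctrl and 132, 162 and 187 with NE (log2 fold change -0.91, limma adjusted p = 0.00449). ZNF749 had 57.6, 72.6 and 81.3 in Ctrl and 35.6, 42.6 and 41.1 with NE.

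The other genes among the 10 largest falls were ZNF703, ZNF710, ZNF764, ZNF691, ZNF707 and ZNF689, with log2 fold changes from -0.73 to -0.50. ZNF703, a corepressor amplified in luminal breast cancer, had 389, 425 and 262 in Ctrl and 224, 178 and 235 with NE, so the third Ctrl library was the one nearest to the NE libraries. Of these 10 falls, ZNF787, ZNF668, ZNF688 and ZNF710 stayed past the adjusted p in all 6 fits that left out 1 library, and ZNF691 in 1 of them.

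Per length of exon (FPKM), the most abundant member was ZNF768, whose protein has been linked to growth control downstream of RAS, at 35.8 ± 12.8 FPKM in Ctrl and 32.6 ± 3.82 with NE (SD, n = 3). ZNF622, a factor in the making of the large ribosomal subunit, followed with 28.6 ± 4.05 and 25.6 ± 1.39 FPKM. Neither passed the test with all libraries. Both passed without the third Ctrl library, ZNF622 with a log2 fold change of -0.43 (limma adjusted p = 0.00109). Normalized read counts of ZNF768 were 1883, 1847 and 879 in Ctrl and 1145, 1369 and 1273 with NE, so the third Ctrl library alone was below every NE library, and without it the log2 fold change went from -0.21 to -0.57 (limma adjusted p = 0.000138).

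ZNF664 was the one upregulated gene of the 5 most abundant members, from 12.3 ± 0.47 to 21.1 ± 0.13 FPKM. Its normalized read counts were 1419, 1365 and 1424 in Ctrl and 2275, 2189.8 and 2114 with NE, and its log2 fold change of 0.64 (limma adjusted p = 0.000722) was 0.65 after GC correction. ZNF706, a very small protein, was at 12.5 and 11.7 FPKM, and ZNF689, one of the 12 lower members, at 13.5 and 10.5 FPKM. The log2 fold change of ZNF706 was -0.23 (limma adjusted p = 0.118), and -0.31 without the third Ctrl library (limma adjusted p = 0.0115). After GC correction it was -0.69 (limma adjusted p = 0.00559), and ZNF706 was 1 of the 4 members lower in that fit. The FPKM of the 121 members summed to 357, 351 and 317 in the Ctrl libraries and 394, 397 and 409 in the NE libraries. All 3 NE sums were above all 3 Ctrl sums.

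Among members with described roles, ZNF644, ZNF652 and ZNF704 rose. ZNF644, a partner of the H3K9 methyltransferases G9a and GLP, had 538, 477 and 753 in Ctrl and 1412, 1172 and 1187 with NE, with a log2 fold change of 1.11 ± 0.17 (limma adjusted p = 0.00092). It was 0.48 ± 0.11 after GC correction (limma adjusted p = 0.00753). ZNF652, a repressor that works with CBFA2T3, had 194, 229 and 244 in Ctrl and 553, 436 and 387 with NE, with a log2 fold change of 1.03 ± 0.17 (limma adjusted p = 0.00118). ZNF704 had 136 to 176 in Ctrl and 217 to 269 with NE, with a log2 fold change of 0.70 (limma adjusted p = 0.00717). After GC correction ZNF652 was at 0.53 (limma adjusted p = 0.0203). ZNF704 was then at 0.43 and no longer passed (limma adjusted p = 0.0507).

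Several others did not pass the test. ZNF687, found with ZMYND8, had a log2 fold change of -0.30, ZNF639, a gene of the 3q region amplified in squamous lung cancer, 0.33, and ZNF667 0.35. ZNF746 (PARIS), a substrate of parkin that represses PPARGC1A, was at -0.19, and ZNF692, which binds an AICAR-responsive element, at -0.35. ZNF675, which binds TRAF6, was at 0.31, and ZNF711, a partner of the demethylase PHF8, at 0.37 with an SE of 0.49. ZNF609, a regulator that works with cohesin loading and the Integrator complex, had 1931, 1915 and 1601 in Ctrl and 1966, 1875 and 1699.6 with NE. Its libraries overlapped between the groups throughout, and its log2 fold change was 0.03 ± 0.12 (limma adjusted p = 0.862). Without the third Ctrl library, ZNF639, ZNF667, ZNF692 and ZNF746 passed the adjusted p, each in the direction given.

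Genes with a KRAB box and genes without one were described apart. Of the 73 KRAB members tested, 30 were higher and 5 lower, with a median log2 fold change of 0.47, and 12 were called higher and 0 lower. These are 41.1% higher and 6.85% lower, where all genes had 24.6% and 25.5%, and 16.4% and 0% called, where all genes had 7.47% and 6.55%. The 39 coding members without a KRAB box had 12 higher and 7 lower (30.8% and 17.9%), with a median of 0.11. Of these 39, 5 were called higher and 1 lower (12.8% and 2.56%). Without the third Ctrl library the KRAB members had 35 higher and 8 lower (47.9% and 11%) with a median of 0.54. The others had 15 higher and 14 lower (38.5% and 35.9%) with a median of -0.06, so that their median changed sign. All genes had 31.8% and 32.6% in that fit. The exons of the KRAB members had a median GC content of 42.7%, and those of the others 51.7%. After GC correction the medians were 0.19 and 0.24, and the order of the groups was turned. Then 12 KRAB members were higher and 2 lower (16.4% and 2.74%), and 12 of the others were higher and 2 lower (30.8% and 5.13%). All genes had 14.5% and 17.7% in that fit. In it 3 KRAB members were called higher and 2 lower (4.11% and 2.74%), close to the 3.67% and 2.31% of all genes. Of the others, 1 was called higher (2.56%) and 0 lower. The number of fingers had a weak relation to the log2 fold change over 112 members (Spearman 0.28, and 0.16 after GC correction), given as a description because all members were measured in the same libraries.

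The size and the direction of the change followed the GC content of the exons. Over the 113 members the Spearman correlation of log2 fold change and exon GC content was -0.63, and over all 14955 tested genes with a GC value it was -0.64. The 24 members under 40% GC had a median of 0.61 with 11 higher (45.8%) and 0 lower, where all genes of that range had 60.9% higher and 1.52% lower. The 39 members from 40% to under 45% had 0.70 with 25 higher (64.1%) and 0 lower, where all genes had 42.3% and 5.48%. The 26 members from 45% to under 55% had 0.18. The 24 members at 55% or more had -0.38 with 0 higher and 10 lower (41.7%), where all genes had 2.23% higher and 54.8% lower. Without the third Ctrl library the medians were 0.68, 0.73, 0.23 and -0.57, and 17 members at 55% or more were lower. These 17 are 70.8%, close to the 68.6% of all genes of that range in the same fit. With all libraries, the medians over all tested genes in the same ranges were 0.67, 0.41, -0.15 and -0.63. The members thus lay above the median of all genes in each range but the lowest.

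To give values with this relation removed, each library's trend of log2 level on exon GC content was fitted over all genes and taken off. The median of the members then was 0.21, that of all genes -0.01. In this fit 24 members were higher and 4 lower at the adjusted p, against 14.5% and 17.7% of all genes. With the fold threshold as well, 4 were higher and 2 lower, against 3.67% and 2.31%, so that the share called higher was close to that of all genes. The 4 called higher were ZNF613, ZNF600, ZNF606 and ZNF697, and the 2 called lower ZNF749 and ZNF726. Of the 43 members higher without the correction, 19 were higher with it, and of the 12 lower ones, ZNF787 and ZNF749 were lower with it.

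With the correction and without the third Ctrl library, 31 members were higher and 5 lower, against 19.3% and 22.9% of all genes, and 5 and 1 passed the fold threshold, against 4.25% and 3.53%. ZNF697, which has 11 fingers, no KRAB box and an exon GC content of 51.86%, was one of the higher members whose rise grew with the correction, as ZNF618 was (0.58 without and 0.91 with it). Its counts were 216, 153 and 191 in Ctrl and 416, 288 and 278 with NE, and its log2 fold change was 0.79 without and 1.07 with the correction (limma adjusted p = 0.00938 and 0.00343). It was singled out after its values were seen.

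The same relation was present between Ctrl libraries. Set against the mean of the first and second Ctrl libraries, the members of the 4 GC ranges had median log2 levels of 0.34, 0.20, 0.00 and -0.35 in the third Ctrl library. In the first NE library they had 0.85, 0.77, 0.31 and -0.62, in the second 0.70, 0.72, 0.19 and -0.49, and in the third 0.68, 0.69, 0.19 and -0.53. The third Ctrl library thus lay between the other Ctrl libraries and the NE libraries in the ranges under 45% and at 55% or more. In those ranges all 3 NE libraries were farther out than it was. The part of this relation with GC content in the changes with NE was not tested.

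On chromosome 19 the members fell into clusters, taken as runs whose starts lay at most 1 Mb apart. They are lettered A to E in map order. The cluster D, chr19:51889235-53461862 (hg38), held 14 members, all tested and all with a KRAB box. Of these 12 were higher and 0 lower, 5 of them were called (ZNF613, ZNF616, ZNF600, ZNF765 and ZNF761), and the median log2 fold change was 0.89. The members of this cluster that did not pass were ZNF649 at 0.23 and ZNF665 at 0.50. After GC correction the median was 0.51, with 6 higher and 0 lower (42.9% and 0%, against 14.5% and 17.7% of all genes). Without the third Ctrl library it was 0.92, with 12 higher (85.7%, against 31.8% of all genes).

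The cluster B, chr19:19997058-23945159, held 13 members, of which 11 were tested. Only ZNF708 was higher, at 0.64 (limma adjusted p = 0.0264), and 0 were lower. The median was 0.37, and 0.38 with 2 higher without the third Ctrl library. The exons of these 11 genes had a median GC content of 37.9%, below the 42.7% of cluster D, and after GC correction their median was -0.26. ZNF726 stood lowest in this cluster, with 56.5, 51.8 and 85.3 in Ctrl and 47.4, 30.02 and 53 with NE. Its groups overlapped, its log2 fold change was -0.56 (limma adjusted p = 0.15), and after GC correction it was -1.20 (limma adjusted p = 0.00994).

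The other ZNF genes in the same stretches, those named ZNF and a number, had medians near these: 0.99 for 18 genes in cluster D and 0.40 for 13 genes in cluster B, and 0.47 and -0.23 after GC correction. Cluster C, chr19:36817428-37719761, held ZNF790, ZNF793, ZNF781 and ZNF607, and all 4 were higher, with a median of 0.85. Cluster A, chr19:11483427-12633840, had 3 higher of 5 tested with a median of 0.59, and cluster E, chr19:55476617-58003349, had 2 higher and 2 lower of 10 with a median of 0.11. Without the third Ctrl library the medians of A, C and E were 0.65, 0.85 and 0.02. After GC correction they were 0.33, 0.39 and 0.16. Then 2 of the 5 in A were higher, 0 of the 4 in C, and 1 of the 10 in E, where 2 were lower. Such counts in small sets stand beside 24.6% of all genes higher and 25.5% lower. Without the third Ctrl library all genes had 31.8% and 32.6%, and after GC correction 14.5% and 17.7%. The difference between clusters was not tested. The counts of 0 given above for KRAB members called lower, for members by GC range and for clusters B and D were also 0 at an unadjusted limma p under 0.05 and by edgeR and DESeq2. With the GC correction only that of cluster D stayed at 0, and 2 KRAB members were called lower. Then 1 member under 40% GC, 1 from 40% to under 45% and 1 of cluster B were lower (4.17%, 2.56% and 9.09%). All genes of those GC ranges had 14.9% and 17.3% lower. At 55% or more, 4 members were higher (16.7%), where all genes of that range had 12.5%.

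Chromosome 16 held the opposite composition. Its members other than ZNF720 had a median exon GC content of 57.8%, and of these 11 genes 0 were higher (also at an unadjusted limma p and by edgeR and DESeq2) and 5 were lower (ZNF668, ZNF688, ZNF764, ZNF689 and ZNF771), with a median of -0.28. These 5 are 45.5% of the set, where 25.5% of all genes and 54.8% of those at 55% GC or more were lower. With the third Ctrl library left out, 7 were lower, ZNF646 (limma adjusted p = 0.0367) and ZNF768 among them, and the median was -0.50. These 7 are 63.6%, where 32.6% of all genes and 68.6% of those at 55% GC or more were lower. After GC correction the median of the 11 genes was 0.23. ZNF629 and ZNF646 were then higher (18.2%, against 14.5% of all genes). ZNF720, at 37.2% GC, was the member of that chromosome that rose. It had 103, 106 and 144 in Ctrl and 307, 233 and 243 with NE.

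The remaining ZNF genes of the table, 331 in all with 317 tested, gave a similar picture. Of them 145 were higher and 34 lower, 55 and 5 passed the fold threshold, and the median was 0.49. This is 45.7% higher and 10.7% lower, against 24.6% and 25.5% of all genes. With the fold threshold it is 17.4% and 1.58%, against 7.47% and 6.55%. The fit without the third Ctrl library had 172 higher and 50 lower (54.3% and 15.8%, against 31.8% and 32.6% of all genes). In it 62 and 13 passed the fold threshold (19.6% and 4.1%, against 10.7% and 10.1%), and the median was 0.54. After GC correction 74 were higher and 10 lower (23.3% and 3.15%, against 14.5% and 17.7% of all genes) with a median of 0.26. The fold threshold was then passed by 14 and 1 (4.42% and 0.315%, against 3.67% and 2.31%), so the share called higher was close to that of all genes. The members are a section of the family by number alone, and no test was made between them and the other ZNF genes.

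The corepressors that KRAB proteins work through were a list of 25 genes, 24 of them tested. Of these 9 were higher and 9 lower at the adjusted p (37.5% each, against 24.6% and 25.5% of all genes), with a median log2 fold change of -0.03. When the third Ctrl library was left out, 10 were higher and 11 lower (41.7% and 45.8%, against 31.8% and 32.6% of all genes). TRIM28, the partner of the KRAB box, was lower: its counts were 10347, 10196 and 11208 in Ctrl and 6874, 6578 and 6209 with NE, and its log2 fold change was -0.69 ± 0.09 (limma adjusted p = 0.000508). Every NE library was below every Ctrl library. After GC correction it was -0.05 (limma adjusted p = 0.812), at an exon GC content of 62.5%. SETDB1, the methyltransferase TRIM28 recruits, did not pass, with 582, 443 and 320.4 in Ctrl and 412, 477 and 549 with NE.

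Among the other lower genes, SUV39H1, an H3K9 methyltransferase, was at -1.23, and UHRF1, which guides DNA methylation to newly copied DNA, at -1.22. DNMT1, the maintenance DNA methyltransferase, was at -0.70, WIZ, a zinc finger partner of G9a and GLP, at -0.61, and EHMT1, which is GLP, at -0.51. HDAC1, the histone H3.3 chaperone DAXX and the remodeller CHD4 were at -0.49, -0.49 and -0.41.

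The higher genes included ATRX, the chromatin remodeller that works with DAXX, at 1.17, and the genes of the HUSH complex, which silences transposable elements with SETDB1 and MORC2. MPHOSPH8, the HUSH subunit that binds H3K9 methylation, had 520.5, 486 and 437 in Ctrl and 1117, 984 and 927 with NE, with a log2 fold change of 1.07 ± 0.13 (limma adjusted p = 0.000274). It was 0.78 after GC correction (limma adjusted p = 0.00147). FAM208A, which encodes the HUSH subunit TASOR, was at 0.92, and PPHLN1, the third HUSH subunit, at 0.44. MORC3, SUV39H2, ATF7IP (a partner of SETDB1), CBX5 (HP1α) and HDAC2 were at 0.77, 0.69, 0.68, 0.55 and 0.47. After GC correction 3 corepressors were higher (MPHOSPH8, ATRX and FAM208A) and 4 lower (UHRF1, SUV39H1, DNMT1 and HDAC1). These are 12.5% and 16.7% of the 24 tested, near the 14.5% and 17.7% of all genes in that fit. PPHLN1 and HDAC2 changed sign to -0.08 and -0.21.

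Because NE can act through CREB, the promoters of the members were searched for the CRE. RefSeq promoter windows (GRCh38.p14, from 250 bases before to 50 after the start) were at hand for 95 of the 121 members. The full palindrome TGACGTCA was in 0 of the 95, and in 1.98% of all 27305 windows and 3.39% of the 10957 windows of tested genes. The short site TGACG, read on either strand (as TGACG or CGTCA) and contained in the palindrome, was in 26 of the 95 (27.4%), and in 25.01% of all windows and 34.6% of those of tested genes. Of the 91 members both matched and tested, it was in 12 of 33 that were higher, 0 of 8 that were lower and 13 of 50 that were neither. A match of these letters is a description of the window and not a binding site.

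The 120 bases before the start are shown for 6 members: for ZNF613, ZNF615 and ZNF644 as higher genes with the short site, which is in capitals, for ZNF638 as the largest rise, and for ZNF668 and ZNF787 as the largest falls. ZNF613 lies at chr19:51927352-51927471 on the plus strand, ZNF615 at chr19:52008212-52008331 on the minus strand, ZNF644 at chr1:91022036-91022155 on the minus strand, ZNF638 at chr2:71331662-71331781 on the plus strand, ZNF668 at chr16:31074241-31074360 on the minus strand and ZNF787 at chr19:56121296-56121415 on the minus strand.
ZNF613: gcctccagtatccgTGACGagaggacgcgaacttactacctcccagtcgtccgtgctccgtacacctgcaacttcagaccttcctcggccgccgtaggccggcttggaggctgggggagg
ZNF615: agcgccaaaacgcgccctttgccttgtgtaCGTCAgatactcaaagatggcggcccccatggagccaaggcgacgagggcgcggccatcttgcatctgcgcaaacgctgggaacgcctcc
ZNF644: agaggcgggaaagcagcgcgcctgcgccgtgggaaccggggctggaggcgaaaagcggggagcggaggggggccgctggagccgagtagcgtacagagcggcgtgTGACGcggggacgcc
ZNF638: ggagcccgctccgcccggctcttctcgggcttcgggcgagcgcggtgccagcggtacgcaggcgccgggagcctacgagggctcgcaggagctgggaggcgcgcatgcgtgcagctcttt
ZNF668: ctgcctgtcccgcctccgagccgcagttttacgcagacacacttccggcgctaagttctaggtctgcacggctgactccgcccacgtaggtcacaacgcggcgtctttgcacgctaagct
ZNF787: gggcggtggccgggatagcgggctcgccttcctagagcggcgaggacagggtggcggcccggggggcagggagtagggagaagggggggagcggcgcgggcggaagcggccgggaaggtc

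The stretches differ in composition. Over these 120 bases the GC content was 64.2% for ZNF613, 62.5% for ZNF615, 74.2% for ZNF644 and for ZNF638, 61.7% for ZNF668 and 77.5% for ZNF787. ZNF638 and ZNF644 thus had GC-rich starts and GC-poor exons, at 38.1% and 37.99%. ZNF615, with the short site 90 bases before its start, was higher at 0.98 (limma adjusted p = 0.0148), and 0.46 after GC correction (limma adjusted p = 0.197).

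The 8 members below a mean of 10 were not tested. ZNF763 came closest, with 6.28, 7.26 and 1.96 in Ctrl and 2.96, 11.6 and 10.97 with NE. ZNF625, ZNF660, ZNF709, ZNF727, ZNF728 and ZNF729 had at most 6.40 in any library. ZNF750, a regulator of epidermal differentiation, had 2.07 in the second Ctrl library and was at 0 in the other 5. At this depth it cannot be told whether these genes differed between the groups.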

How the data were processed

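Gene expression in NCI-H1299 cells (3 Ctrl and 3 NE libraries) was taken from the deposited table. Per the sources used here, the authors aligned reads to hg38 with HISAT2 2.0.5, counted them per gene with featureCounts 1.5.0-p3 and used DESeq2. The annotation and the strand setting are not given in the sources used here. The deposited values are named FPKM, but they are a signal of another kind: per library, 100% were whole multiples of the value of 1 read (tolerance 0.05 reads), so they are counts divided by a size factor. They are called normalized read counts here.

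The members and the gene lists were chosen with earlier results of these data known. limma 3.58.1 (R 4.3.3; empirical Bayes with trend, all 6 libraries, no covariate) was fitted to log2(value + 1), which understates the change of low genes, to 15013 genes, those whose mean reached 10. This fit was the main test. Count tests on the recovered reads, with DESeq2 1.42.0 and edgeR 4.0.16, were alternatives. Called means an adjusted p under 0.05 with a log2 fold change of at least 1. GC content, length and coordinates came from merged exons of GENCODE v44, and FPKM were recomputed from these lengths. The GC correction removed a natural spline (5 degrees of freedom) per library. The script was tested on simulated data.

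Named genes are the 10 largest rises and falls past the adjusted p, the 5 highest mean FPKM, 18 members with known roles, and corepressors past the adjusted p; others are named as exceptions. One gene of the marker list is not reported here. Libraries of equal replicate number did not deviate together (correlations -0.16, 0.08 and -0.15). Ctrl pairs differed beyond sampling noise (chi-square per degree of freedom 2.88 to 50.0), as did NE pairs (5.32 to 23.9).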

Additional observations from a re-analysis of the deposited data

How the results depend on the processing

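The counts of members and the median kept their direction and stayed within 1.5 times their value with pseudocounts of 0.5 and 5, other filters on low values, TMM scaling, edgeR, DESeq2, voom and no trend; quantile normalization gave 2 members called lower. The GC correction moved them: 4 called higher, 2 called lower, 24 higher and 4 lower, a median of 0.21, 7 corepressors and 84 other ZNF genes past the adjusted p. With the third Ctrl library left out as well these were 5, 1, 31, 5, 0.17, 9 and 111. The replicate block gave 18 called higher, 1 called lower, 40 higher, 9 lower, a median of 0.37, 18 corepressors and 158 other ZNF genes; equal numbers did not pair the libraries. The replicate block with the GC correction gave 2, 2, 17, 4, 0.21, 5 and 64.

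When 1 library was left out, members called lower ranged from 0 (without Ctrl 2) to 2 (without Ctrl 3, NE 1 or NE 3) and lower members from 6 to 22. The fewest lower members were without Ctrl 1 and without Ctrl 2 (6 each) and without NE 2 (7), the most without Ctrl 3. The log2 fold change of ZNF711 ranged from -0.056 to 0.85 and that of ZNF609 from -0.061 to 0.086. Of the 1110 values of 53 named genes under an alternative, 974 kept direction and side of the threshold, 86 fell below it, 11 passed it and 39 changed sign. With the GC correction, and alike with the replicate block added, the signs of ZNF764 (0.038), ZNF707 (0.060), ZNF768 (0.44), ZNF622 (0.059), ZNF687 (0.24), ZNF639 (-0.12), ZNF692 (0.21), ZNF746 (0.18), ZNF675 (-0.21), ZNF711 (-0.25), WIZ (0.022), PPHLN1 (-0.075) and HDAC2 (-0.21) turned. With the correction and without Ctrl 3 those of ZNF764 (0.12), ZNF707 (0.044), ZNF768 (0.22), ZNF687 (0.36), ZNF692 (0.090), ZNF675 (-0.19), TRIM28 (0.12), WIZ (0.0054), PPHLN1 (-0.18) and HDAC2 (-0.27) did. The cause was not tested. Members at low counts, such as ZNF711 with an SE of 0.49, are limited by depth.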
